A study of Mus musculus with 8 samples.

Results

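mmu-miR-103-3p, mmu-miR-107-3p, mmu-miR-298-5p and mmu-miR-328-3p, written below without the species prefix, are mouse miRNAs that have been described as repressors of Bace1, the β-secretase that makes the first cut in the release of amyloid β from its precursor APP. They were taken as the read sequences that carried exactly one of these names, and the reads of each name were summed. This gave 4 of the 895 mature miRNA names in the data and 480 of the 47204 distinct read sequences, of which 154 were miR-107-3p, 27 miR-298-5p, 175 miR-328-3p and the remainder miR-103-3p. The small RNAs were bound to Argonaute proteins, the core of the RNA-induced silencing complex (RISC), and were pulled down with a GW182 peptide from cortex and hippocampus combined. Both groups carried the 5XFAD transgene, which includes mutant human APP driven by the Thy1 promoter in neurons. They were 4 5XFADtg Rubicon+/- mice (het), with 1 intact copy of the autophagy gene Rubicon, and 4 5XFADtg Rubicon-/- mice (ko), with none. Per the methods of the study, these were 4 female mice a genotype, from a mixed C57BL/6J and SJL background, aged 6 or 8 months. Its account of the comparison describes the ko mice as 6 months old and 3 het mice as matched to them in age, whereas 4 het libraries were analysed here, and the labels give no ages. Mice without the transgene and mice with both copies of Rubicon were not among these samples.

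A miRNA guides Argonaute to mRNAs through its seed, the bases from position 2 to 8 at its 5′ end, which pair with sites that lie mostly in 3′ untranslated regions (3′UTRs). miR-103 and miR-107 form a family that is encoded within introns of the pantothenate kinase genes, which start coenzyme A synthesis. They are broadly expressed and known in the brain, besides Bace1, for their relation to the RNase Dicer and to cofilin, whereas miR-298 and miR-328 have been studied as a pair acting on the mouse Bace1 mRNA.

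The mature sequences that RefSeq gives for these miRNAs in the mouse show how nearly miR-103-3p and miR-107-3p coincide. Capitals mark the seed.
miR-103-3p: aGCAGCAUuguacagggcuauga
miR-107-3p: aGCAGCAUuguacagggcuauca
miR-298-5p: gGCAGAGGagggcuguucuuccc
The 3 are 23 nt long. miR-103-3p and miR-107-3p share the seed and differ by the single substitution G22C, counted from the 5′ end of miR-103-3p, near the 3′ end of the molecule. With this base in capitals beside the seed they read as follows.
miR-103-3p: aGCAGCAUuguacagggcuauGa
miR-107-3p: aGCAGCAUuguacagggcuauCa
On GRCm38.p6, miR-103-3p is made from 2 hairpins, Mir103-1 at chr11:35782396-35782481 on the plus strand, in an intron of Pank3, and Mir103-2 at chr2:131288052-131288137 on the plus strand, in an intron of Pank2. Mir107 lies at chr19:34820687-34820773 on the minus strand, in an intron of Pank1. Mir298 lies at chr2:174267504-174267585 on the minus strand, 378 bases from Mir296 at chr2:174267047-174267125, and no other annotated GENCODE M21 gene overlapped either of them.

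The seeds predict where each miRNA could pair with the Bace1 mRNA, so the 3′UTR of Bace1 was searched for their complements. The longest annotated 3′UTR (chr9:45860296-45864399, plus strand, GRCm38) has 4104 bases, and only its sense strand was searched, as mRNA is single stranded. The 6mer TGCTGC, the complement of positions 2 to 7 of miR-103-3p and miR-107-3p, occurred at 5 places, 2 of them extended to the 7mer ATGCTGC and 1 of those to the 8mer ATGCTGCA. The 8mer lay with its 6mer at chr9:45863218-45863223 and the other 7mer with its 6mer at chr9:45862641-45862646. In their surroundings, with the 6mer in capitals, they read as follows.
8mer match to miR-103-3p and miR-107-3p: gctagtgctggaTGCTGCacag
7mer match to miR-103-3p and miR-107-3p: cactctccaaaaTGCTGCcttt
The 6mer CTCTGC, which complements miR-298-5p, also occurred at 5 places, and 2 of them were extended to the 7mer CCTCTGC, with the 6mer at chr9:45860588-45860593 and chr9:45861391-45861396. The 8mer CCTCTGCA was not found.
First 7mer match to miR-298-5p: tcagccctgaccCTCTGCccag
Second 7mer match to miR-298-5p: tgatgcatttgcCTCTGCctgg
The deposited seed of miR-328-3p, UGGCCC, has the complement GGGCCA, which occurred 3 times. A 6mer match to miR-298-5p at positions 1392 to 1397 of the 3′UTR overlapped a 6mer match to miR-103-3p and miR-107-3p at positions 1395 to 1400. Matches to short motifs are common in a 3′UTR of this length. Among the 1353 genes with a 3′UTR at least as long, read over the same number of bases, 75.5% held TGCTGC, 27.1% ATGCTGC and 8.06% ATGCTGCA. The shares were 82.6% for CTCTGC, 43.5% for CCTCTGC and 54.5% for GGGCCA. A match describes the letters only, and neither binding nor Bace1 mRNA was measured in these samples.

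Library depth ranged from 509839 reads in het replicate 1 to 19878058 reads in ko replicate 2, and the 2 libraries over 5000000 reads were both ko, so depth of that order and genotype cannot be told apart. Levels are in CPM, reads per 1000000 reads of a library, and 3 reads, taken as the smallest level to be read with some certainty, were worth 5.79 CPM in the shallowest and 0.151 CPM in the deepest library. The brain miRNAs miR-128-3p, miR-9-5p and miR-124-3p ranked 1, 3 and 4 by mean level, and the oligodendrocyte miR-219a-2-3p ranked 88. Of the miRNAs of other tissues, miR-122-5p (liver) stood at 15.14 CPM, miR-1a-3p and miR-133a-3p (muscle) at 124.8 and 102.0 CPM, miR-217-5p (pancreas) at 0.57 CPM, and miR-208a-3p (heart) was not among the names. miR-1a-3p was between 55.56 and 211.8 CPM in the het and ko libraries and overlapped between them. The level of Rubicon mRNA was not measured by small RNA sequencing, so the genotype labels were not checked.

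The first question was how much of each miRNA the RISC of these brains held, and whether loss of the remaining copy of Rubicon altered it. Together the 4 miRNAs made up 1.563% ± 0.4018 (SD, n = 8) of the reads of a library, between 1.063% and 2.11%. miR-103-3p was the most abundant by mean level, ranking 36 of all miRNAs at 6517 CPM ± 1517 (SD, n = 8), followed by miR-328-3p at rank 39 with 5756 CPM ± 2182 and miR-107-3p at rank 54 with 3230 CPM ± 1410. miR-298-5p was far lower, ranking 265 at 124.6 CPM ± 64.76. In the order miR-103-3p, miR-328-3p, miR-107-3p the libraries of neighbours overlapped in level, whereas the highest miR-298-5p library was below the lowest library of each of the other 3. None of the 4 differed between genotypes by more than the spread between mice, and the estimates were imprecise. In bulk tissue, fewer cells of a type and less of a miRNA in each cell cannot be told apart.

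miR-103-3p stood at 7954, 5051, 4654 and 7588 CPM in het replicates 1 to 4 and at 4659, 8310, 7297 and 6623 CPM in ko replicates 1 to 4. Low libraries occurred in both genotypes, and the groups overlapped over nearly their whole range. The means were 6312 CPM ± 1699 and 6722 CPM ± 1540 (SD, n = 4 each). The log2 fold change of ko against het was 0.10 ± 0.27 (SE), with a 95% interval from -0.49 to 0.68 and an adjusted p of 0.975 by limma.

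miR-107-3p, as the reads are named in the data, stood at 4971, 1840, 2303 and 5447 CPM in the het libraries and at 1773, 2808, 2702 and 3999 CPM in the ko libraries. The 2 highest libraries were het, but so was the second lowest, and the ko libraries lay within or just below the het range. The means were 3640 CPM ± 1832 and 2820 CPM ± 912.6. The log2 fold change was -0.27 ± 0.38 with an interval from -1.09 to 0.55 (limma, adjusted p = 0.975).

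miR-328-3p stood at 4686, 5600, 3583 and 7940 CPM in the het libraries and at 4320, 4073, 9969 and 5883 CPM in the ko libraries. The highest library was ko and the lowest het, with the other 6 intermixed. Its means were 5452 CPM ± 1852 and 6061 CPM ± 2725, and its log2 fold change was 0.12 ± 0.33, with an interval from -0.60 to 0.83 (limma, adjusted p = 0.975).

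miR-298-5p stood at 121.6, 156.8, 88.91 and 129.2 CPM in the het libraries and at 108.7, 113.4, 253.5 and 24.5 CPM in the ko libraries. Both extremes were ko libraries and differed 10.3-fold, while the het libraries kept close together. The lowest value, in ko replicate 4, rested on 25 reads with a 95% Wilson interval from 16.6 to 36.2 CPM. The highest, in ko replicate 3, had an interval from 234 to 275 CPM. These intervals cover counting error only, and the cause of the gap between these 2 mice was not tested. The means were 124.1 CPM ± 27.93 and 125.0 CPM ± 94.9, whereas the log2 fold change was -0.37 ± 0.55 (limma, adjusted p = 0.975), with an interval from -1.56 to 0.82. The mean and the log2 estimate differed in direction, since the log scale gave more weight to the low ko replicate 4. Without that library the log2 fold change was 0.26.

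**Figure D1:**
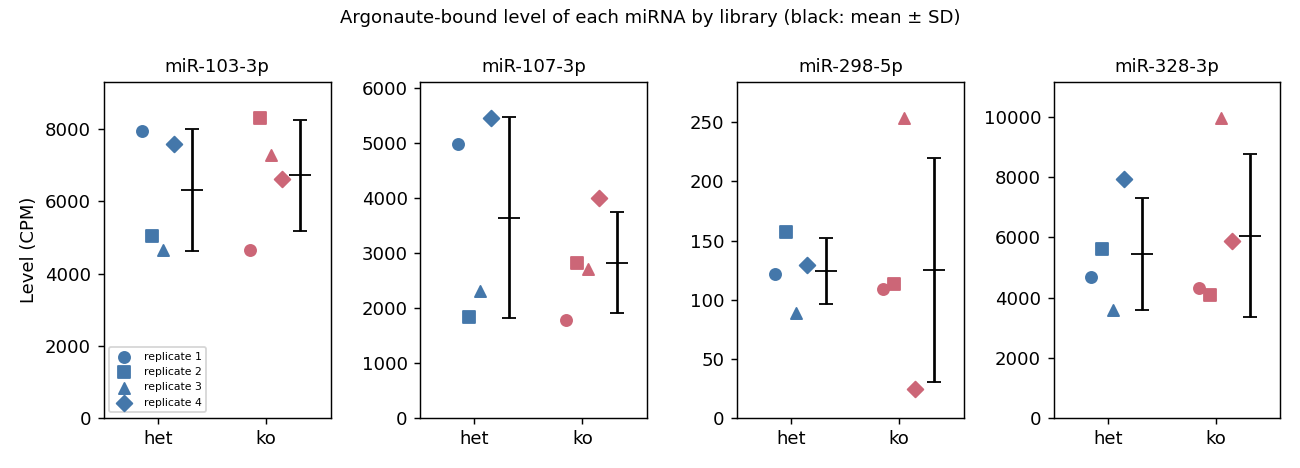
Level of each miRNA in CPM (vertical axis, from 0, a separate scale in each panel) in the 4 het (blue) and 4 ko (red) libraries, with the marker shape giving the replicate number and the black bar the mean ± SD. The genotypes overlap in each panel, and the 2 ko libraries at 24.5 and 253.5 CPM set the wide ko bar of miR-298-5p.

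As linear ratios, the 95% intervals of ko over het ran from 0.714 to 1.61 for miR-103-3p, from 0.469 to 1.46 for miR-107-3p, from 0.662 to 1.78 for miR-328-3p and from 0.34 to 1.77 for miR-298-5p. Each interval included 1 and reached well to either side of it. For comparison, 6 of the 463 miRNAs tested, or 1.3%, passed an adjusted p of 0.05 by limma, and all 6 were lower in ko. Without overlap between the 4 het and 4 ko libraries were 16 miRNAs, or 3.46%, and none of the 4 miRNAs was among them.

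**Figure D2:**
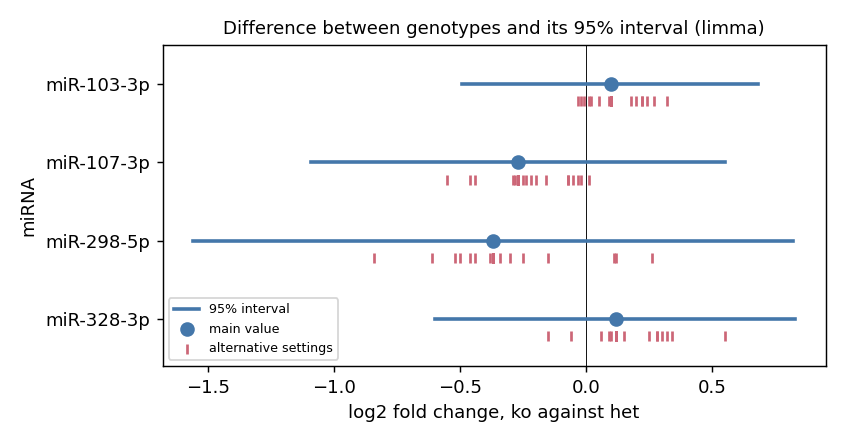
The log2 fold change of ko against het (horizontal axis) for the 4 miRNAs, with the point as the main limma value, the line as its 95% interval and the red ticks as the values under 22 other settings. Each interval crosses 0, and the ticks lie within it.

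The second question was which of these reads can be assigned to miR-103-3p or miR-107-3p at all, as the base that tells them apart is position 22. Reads with G at this position amounted to 6516 CPM ± 1517 (SD, n = 8), and reads with C to 1421 CPM ± 553. A further 1810 CPM ± 884.2 had neither base, mostly because they ended before it. Of the read sequences of this kind, 102 carried the name miR-107-3p. The only other one, at 0.5496 CPM, carried the name miR-103-3p. The names therefore gave the shared reads to miR-107-3p almost without exception, and 55.24% ± 4.541 of what was named miR-107-3p had no base that distinguishes it from miR-103-3p. A second name column in the same data gave the hairpin mir-103-1 to these 102 sequences and mir-107 to the other 52.

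The most abundant read under the name miR-107-3p was a 21 nt molecule that is identical in both miRNAs. It is set here beside the most abundant reads that do reach the telling base, which is in capitals where present.
Shared read, 21 nt: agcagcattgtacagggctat
miR-103-3p, 23 nt: agcagcattgtacagggctatGa
miR-103-3p, 22 nt: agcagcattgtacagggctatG
miR-107-3p, 23 nt: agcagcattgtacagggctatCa
miR-107-3p, 22 nt: agcagcattgtacagggctatC
The shared read stood at 2176, 710.5, 933.7 and 2795 CPM in the het libraries and at 700.2, 1218, 877.8 and 1813 CPM in the ko libraries. The highest libraries, het replicates 4 and 1, were also those of miR-107-3p as named, of which this read is itself a part, and the groups overlapped. The log2 fold change was -0.39 ± 0.43 (limma, adjusted p = 0.973). The 23 nt read of miR-103-3p had a mean of 4438 CPM ± 1212 and that of miR-107-3p 720.3 CPM ± 335.2 (SD, n = 8).

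**Figure D3:**
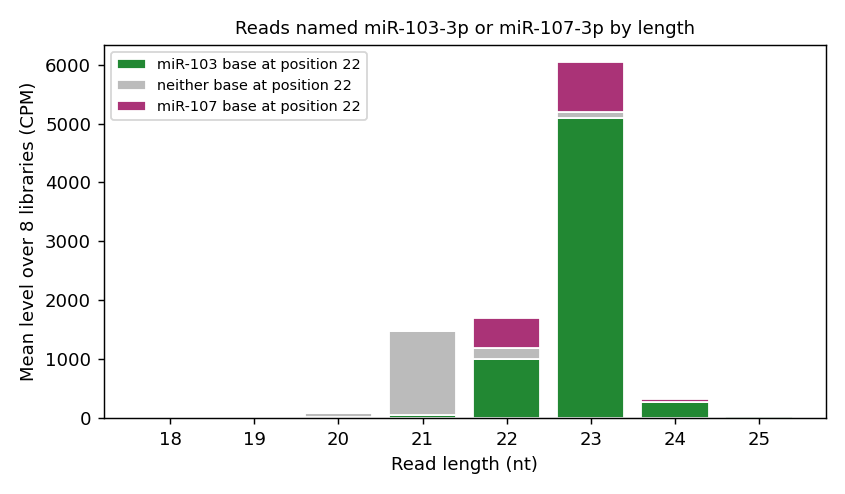
Mean level over the 8 libraries in CPM (vertical axis) of reads named miR-103-3p or miR-107-3p by read length in nt (horizontal axis), stacked by the base at position 22. Reads of 23 nt carry mostly the miR-103 base, at 5102 CPM, while those of 21 nt are nearly all without a telling base, at 1430 CPM.

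Counting only reads with a telling base changed the proportion of the 2 miRNAs more than it changed the comparison of genotypes. By the names, miR-103-3p was 2.213 ± 0.6146 times as abundant as miR-107-3p (SD, n = 8), with a range from 1.393 to 2.959. By the telling base the ratio was 4.926 ± 1.265, with a range from 3.573 in het replicate 1 to 6.936 in ko replicate 2, and the miR-103 base was present in 82.46% ± 3.606 of the informative reads. By construction the second ratio is the higher, as it leaves out the shared reads, nearly all of which count as miR-107-3p by name. When the shared reads were divided in each library in the proportion of its informative reads, miR-103-3p came to 7986 CPM ± 2016 and miR-107-3p to 1761 CPM ± 768.2, compared with 6517 and 3230 CPM by name. This division assumes that both miRNAs end before position 22 equally often.

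A measure that bears on this assumption was the share of 22 nt reads among the informative reads of 22 and 23 nt that ended within the hairpin sequence. For miR-103-3p it was 18.15% ± 5.33 (SD, n = 8), between 9.164% and 27.08%, and for miR-107-3p it was 41.33% ± 4.664, between 35.89% and 51.04%. The share was higher for miR-107-3p in 8 of 8 libraries, and the ranges did not overlap. The log2 level of the reads without a telling base was correlated with that of each other class over the 8 libraries. Pearson r was 0.92 (Spearman rho 0.88) with the miR-107 base reads and 0.70 (rho 0.62) with the miR-103 base reads. The latter 2 classes had an r of 0.79 (rho 0.64) with each other. All reads of a library share its depth and scaling. How the shared reads divide between the 2 miRNAs was not measured.

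**Figure D4:**
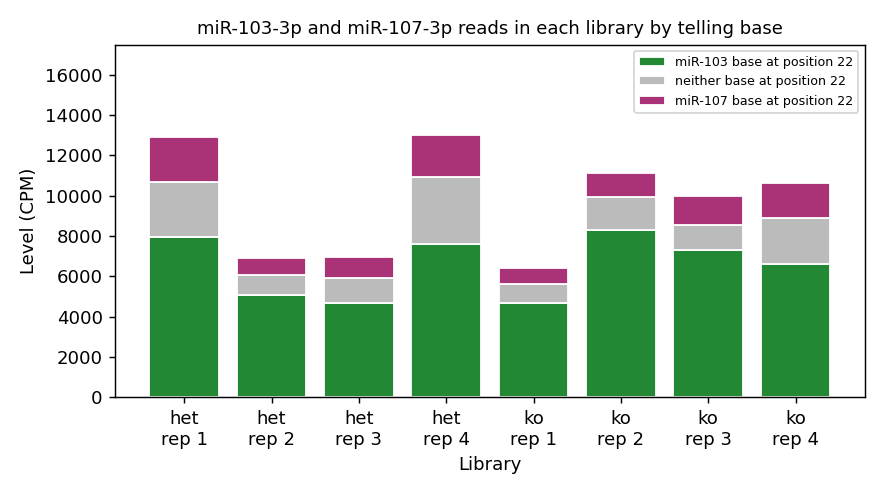
Level in CPM (vertical axis) of the reads named miR-103-3p or miR-107-3p in each of the 8 libraries (horizontal axis), stacked by the base at position 22. The part without a telling base makes up 12.29% to 25.74% of a bar, and the total runs from 6432 CPM in ko replicate 1 to 13030 CPM in het replicate 4.

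Reads with the miR-107 base alone stood at 2226, 811.6, 1023 and 2093 CPM in the het libraries and at 815.7, 1198, 1473 and 1725 CPM in the ko libraries. The highest and the lowest were both het. Counted in this way miR-107-3p had a log2 fold change of -0.16, and with the shared reads divided -0.24. Summed into 1 family, miR-103-3p and miR-107-3p stood at 9747 CPM ± 2687 (SD, n = 8) and had a log2 fold change of -0.02 with an adjusted p of 0.995 by limma. The share of miR-103-3p in the sum of both, by name, was 64.99% ± 6.594 in het and 70.63% ± 5.602 in ko (exact permutation test, two-sided, p = 0.257, adjusted p = 0.61 over 16 measures).

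The ends of the reads were examined next, since the 5′ end sets the seed and the 3′ end carries trimming and added bases. Most reads of each miRNA began at the same base, with 96.91% ± 0.3936 for miR-103-3p, 97.92% ± 0.566 for miR-107-3p, 99.86% ± 0.307 for miR-298-5p and 97.36% ± 0.2074 for miR-328-3p (SD, n = 8). The lengths differed between miRNAs. miR-103-3p was found mainly as 23 nt (77.8%), miR-328-3p mainly as 22 nt (63.9%), and miR-107-3p by name mainly as 21 nt (42.9%). Most of these 21 nt reads were the shared read, which made up 41.87% of miR-107-3p by name. miR-298-5p had no dominant length, with 26.1% at 20 nt, 35.5% at 21 nt and 21.1% at 22 nt, so that most of its reads were shorter than the 23 nt in RefSeq. Its 3 most abundant reads, which differ only at the 3′ end, are given here to show this.
miR-298-5p, 20 nt: ggcagaggagggctgttctt
miR-298-5p, 21 nt: ggcagaggagggctgttcttc
miR-298-5p, 22 nt: ggcagaggagggctgttcttcc
They averaged 30.66, 35.99 and 20.82 CPM, and the full 23 nt sequence averaged 9.834 CPM.

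A tail is any base at the 3′ end that the hairpin does not encode. Tails were found on 13.02% ± 2.233 of miR-103-3p reads, 15.22% ± 3.228 of miR-107-3p reads and 14.43% ± 6.742 of miR-298-5p reads (SD, n = 8), and were not assessed for miR-328-3p. Their composition was counted by name. Of the tailed miR-103-3p reads 95.4% had only U added and none only A, while of the tailed miR-298-5p reads 66.5% had only A and 22.7% only U. The bases that follow position 22 of miR-103-3p in both hairpins are A, so an A added there cannot be seen. Reads without a telling base were nearly all named miR-107-3p, so their tails are missing from the miR-103-3p share. The lack of A tails on miR-103-3p is thus set by sequence and naming. The miR-107-3p tails, 55.9% U and 26.2% A, include the tails of shared reads and cannot be ascribed to miR-107-3p alone. For the 16 measures of length, 5′ start, leading read, tail and share of the pair, the smallest p between genotypes was 0.143 by the exact permutation test (two-sided), with an adjusted p of 0.61. With 4 against 4 libraries the smallest p that this test can give is 0.0286.

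Single reads were compared as well, so that a difference in one isoform would not be lost in a sum. Of the 480 reads, 45 reached a mean of 10 CPM and were tested, 10 of miR-103-3p, 16 of miR-107-3p, 3 of miR-298-5p and 16 of miR-328-3p. None passed by limma, and none had an unadjusted p under 0.05, the smallest being 0.0572 with an adjusted p of 0.942 for a miR-107-3p read. Under other filters or without single libraries unadjusted p-values reached 0.00892, and none passed adjustment. Among all 3299 reads tested, 16 passed, or 0.485%, and 175 had an unadjusted p under 0.05 (5.3%). The leading miR-328-3p read, of 22 nt, stood at 2788, 2857, 1887 and 4505 CPM in the het and at 2568, 2511, 5838 and 3358 CPM in the ko libraries, with a log2 fold change of 0.23 ± 0.33 (limma, adjusted p = 0.973). It followed the order of the whole miRNA in its extremes, with ko replicate 3 highest and het replicate 3 lowest.

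The study was concerned with 6mer seed viability, a score from an earlier screen in which an siRNA with each 6mer seed (positions 2 to 7) was transfected into mouse cell lines and the surviving cells were measured, so that a low score marks a toxic seed. The seed GCAGCA of miR-103-3p and miR-107-3p had a score of 42.4, UGGCCC of miR-328-3p 35.1 and GCAGAG of miR-298-5p 50.2. Most reads with these seeds came from the 4 miRNAs. miR-103-3p and miR-107-3p gave 97.47% ± 0.8823 of the 9706 CPM with GCAGCA, miR-328-3p gave 98.61% ± 0.1659 of the 5684 CPM with UGGCCC, and miR-298-5p gave 90.1% ± 7.12 of the 138.9 CPM with GCAGAG (SD, n = 8), with the lowest share, 75.33%, in het replicate 3. Of the reads of the 4 miRNAs, 36.64% ± 7.88 had a score under 40, with 35.5% ± 7.4 in het and 37.78% ± 9.31 in ko, and the genotypes overlapped. For the family of miR-103-3p and miR-107-3p the shared seed means that a naming error between them leaves the seed and its score as they are. A start shifted by 1 base changes the score, as in the 0.814% of miR-103-3p reads with the seed CAGCAU at 62.7 and the 0.298% with AGCAGC at 37.8, but such reads were scarce.

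The opposite arms of the same hairpins were present at low levels. miR-103-2-5p stood at 13.84 CPM ± 5.887, miR-107-5p at 12.71 CPM ± 9.391, miR-103-1-5p at 2.374 CPM ± 2.379 and miR-298-3p at 0.9323 CPM ± 1.894 (SD, n = 8), the last 2 being at 0 in 2 and in 4 libraries. miR-328-5p was not among the names. Unlike the 3p arms, the 5p arms tell the hairpins apart well before the 3′ end, as miR-107-5p differs from miR-103-2-5p by C16U and miR-103-1-5p from miR-103-2-5p by A1G. They are shown with the seed in capitals.
miR-103-1-5p: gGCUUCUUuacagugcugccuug
miR-103-2-5p: aGCUUCUUuacagugcugccuug
miR-107-5p: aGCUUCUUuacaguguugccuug
The mean of miR-103-2-5p was above that of miR-103-1-5p, and it was higher in 8 of 8 libraries. All 9 read sequences named miR-103-2-5p and all 4 named miR-103-1-5p began at position 1, with A and with G, so each held the base that tells them apart. Near the floor of 5.79 CPM in the shallowest library these values rest on few reads. miR-296-5p, from the hairpin next to Mir298, stood at 148.8 CPM ± 54.57, close to miR-298-5p, and its log2 level had an r of 0.61 (rho 0.81) with that of miR-298-5p over the 8 libraries, while the opposite arm miR-296-3p had an r of -0.10 (rho 0.12). It differed from miR-298-5p in ko replicate 4, with 109.7 CPM there against 24.5 CPM. None of the 4 arms and neighbours that could be tested passed (limma, smallest adjusted p = 0.975), with log2 fold changes of -0.11 for miR-103-2-5p, -0.05 for miR-107-5p, 0.04 for miR-296-5p and 0.05 for miR-296-3p.

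Other miRNAs described as acting on Bace1 were compared as a chosen list of 11, all of which were found and tested. What follows holds for these 11 and not for every miRNA that may act on Bace1. They included the miR-29 family, miR-9-5p, miR-124-3p and miR-195a-5p. None passed by limma and none had an unadjusted p under 0.05, which 34 of all 463 miRNAs tested had (7.34%). In 10 of the 11 the estimate was below 0 and in 1 above, with a median log2 fold change of -0.38, while over all 463 miRNAs tested the median was -0.09 with 275 below 0. The lowest was miR-29b-3p at -0.70 ± 0.33 (limma, adjusted p = 0.613), with 12330, 17110, 18680 and 18680 CPM in the het and 7447, 21300, 6596 and 10220 CPM in the ko libraries. All but ko replicate 2, which was the highest of the 8, placed the ko libraries below the het ones. The one estimate above 0 was miR-9-5p at 0.41 ± 0.25 (limma, adjusted p = 0.796). The study names miR-9-5p as the most notable difference in this comparison, from single reads past a threshold of 0.05 and averages of triplicates. Its unit, threshold and set of samples thus differ from those used here. Centring each library on its median, edgeR and DESeq2 each gave 6 estimates below and 5 above 0. Such scalings shift all miRNAs together, and the medians of the list were then -0.16, -0.23 and -0.22 beside 0.13, 0.06 and 0.07 for all miRNAs. Without ko replicate 2, the deepest library, 5 of the 11 had an unadjusted p under 0.05, as did 58 of all 463 miRNAs (12.5%), and the smallest adjusted p in the list was 0.08 by limma.

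**Figure D5:**
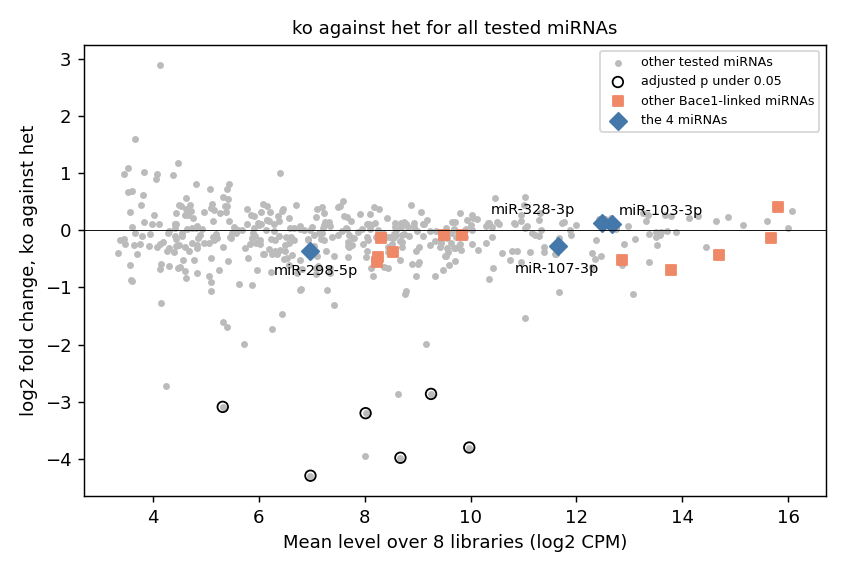
The log2 fold change of ko against het (vertical axis) by mean level in log2 CPM (horizontal axis) for the 463 miRNAs tested, with the 4 miRNAs as blue diamonds, the 11 other Bace1-linked miRNAs as orange squares and the 6 with an adjusted p under 0.05 circled. The 4 miRNAs lie between -0.37 and 0.12, near the middle of miRNAs of similar level, and the circled ones are all below.

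The miRNAs whose log2 levels followed the 4 most closely over the 8 libraries, out of 462 candidates each, are given as a description. For miR-103-3p they were miR-378a-5p (r = 0.88, rho 0.67), miR-467b-5p (0.78, rho 0.76) and miR-3475-3p (0.76, rho 0.83), and its r with miR-107-3p was 0.75 (rho 0.71). For miR-107-3p they were miR-18a-5p (r = 0.91, rho 0.93), miR-339-5p (0.88, rho 0.93) and miR-582-5p (0.88, rho 0.86), of which miR-339-5p is also in the Bace1-linked list. For miR-298-5p they were miR-370-3p (r = 0.97, rho 0.93), miR-3085-3p (0.96, rho 0.93) and miR-423-3p (0.94, rho 0.88). For miR-328-3p they were miR-664-3p (r = 0.98, rho 0.95), miR-770-3p (0.97, rho 0.98) and miR-672-5p (0.95, rho 0.90). Between members other than miR-103-3p with miR-107-3p, r ran from -0.24 to 0.40, and it was 0.33 between miR-298-5p and miR-328-3p. The miRNAs of a library share its depth and scaling, and the highest of 462 values is high by choice.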

How the data were processed

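The deposited table gives CPM for each read sequence, which the authors made with their SPOROS pipeline by trimming reads (Trim Galore per the labels), removing rare and artificial sequences, matching the rest to lists of mouse small RNAs by BLAST and scaling each library to 1000000 reads. Its seed viability column is the authors' mean score over mouse cell lines. A deposited column that sums the signal over libraries was not used. The genome build and aligner settings are not given in the sources used here. Columns summed to between 98.4% and 99.8% of this total, so levels are relative to the rest of a library.

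Groups and replicate numbers came from the sample titles, 4 het and 4 ko, and the labels number each mouse separately. CPM was summed per name, and names or reads that averaged 10 CPM or more were fitted by limma 3.58.1 (R 4.3.3; trend, robust) on log2(CPM + 1) without covariates, with Benjamini-Hochberg adjustment over all 463 miRNAs or 3299 reads. Fold changes on this scale understate those of low miRNAs. Between 99.81% and 100.0% of values were whole reads within 0.05 read, which gave the depths. On these reads edgeR 4.0.16 and DESeq2 1.42.0, run as alternatives, called 4 and 9 miRNAs. Intervals of single libraries are 95% Wilson intervals and cover counting error only, as reads had no molecular identifiers. Scripts were tested on simulated data. Read features were compared by exact permutation over all splits in Python 3.11.15 with scipy 1.17.1.

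The miRNAs named are the 4 members, the fixed lists, and the 3 most alike of each member, and the reads named are the most abundant of each. Members and lists were chosen with earlier results of these data known. miR-1a-3p was set out by library, and the reads shared by miR-103-3p and miR-107-3p divided, after values were seen. Sequences and hairpin places came from RefSeq (GRCm38.p6) and 3′UTRs from GENCODE M21. RefSeq sequences were used for 3 of the 4 members, all but miR-328-3p. Alternatives were other pseudocounts (0.1, 10), filters (1, 100 CPM), median centring, the replicate number as a block, equal depth, the telling base, the main 5′ start, and leaving out libraries.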

Additional observations from a re-analysis of the deposited data

Results flagged for a closer look

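In 72 groups of 4 libraries, the highest or lowest library was compared with its nearest neighbour by Dixon's ratio. It stood apart in 6, where chance gives about 3.6 at 1 in 20. Among ko libraries, replicate 2, the deepest, stood apart with 37450 CPM of miR-29a-3p (next 19360 CPM) and 370.9 CPM of miR-186-5p (next 231.3 CPM). In ko replicate 4, 96.69% of miR-107-3p reads had the main 5′ start, below the other ko libraries. For miR-298-5p this share reached 99.13% for het replicate 4 and 99.78% for ko replicate 2, while the other libraries of each genotype had no other start, so that the ratio was bound to be at its highest for any value below, and these flags say little. The share of reads named miR-107-3p without a telling base was 61.57% in het replicate 4, with the next het library at 55.9%. No cause was tested.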

How the results depend on the processing

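Under 22 alternatives for each of the 4 miRNAs none passed, with a smallest limma adjusted p from 0.707 to 0.864, so their directions are not established and several turned. The log2 fold change of miR-103-3p was -0.02 when summed with miR-107-3p, that of miR-107-3p was 0.01 without the 2 libraries over 5000000 reads (which moved miR-328-3p to 0.55 and miR-298-5p to -0.61), and that of miR-298-5p was 0.11 by edgeR and 0.12 by DESeq2. The cause was not tested. Leaving out 1 library at a time gave -0.03 to 0.27 for miR-103-3p, -0.55 to -0.03 for miR-107-3p, -0.84 to 0.26 for miR-298-5p and -0.15 to 0.32 for miR-328-3p, and 4 to 9 miRNA calls in all. Differences of ko minus het in read features, in percentage points, also turned. For the main 5′ start of miR-103-3p it was 0.02 on reads of at least 1 CPM and ran from -0.27 to 0.09 without 1 library. The other ranges without 1 library were -2.22 to 0.23 for the miR-103-3p tail, -0.22 to 2.3 for the miR-107-3p tail, -0.06 to 0.24 for the main 5′ start of miR-298-5p and -3.59 to 5.26 for its leading read.

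Over the alternatives for single reads, the smallest unadjusted limma p of a read of the 4 miRNAs ran from 0.00892 (mean of at least 1 CPM) to 0.171 (without het replicate 1), and no read passed adjustment.

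Whether the replicate numbers pair the samples is not given in the labels and could not be settled here. The deviations of libraries with the same number had correlations of 0.04, 0.29, -0.18 and 0.25 for replicates 1 to 4. For the het library of each number, the highest with a ko library of another number was 0.08, 0.03, 0.28 and 0.41. With the replicate number as a block there were 10 miRNA calls instead of 6, and none was among the 4 miRNAs. Of the 4 miRNAs, miR-298-5p rested on the fewest reads, with 25 in ko replicate 4.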
